A study of Homo sapiens with 12 samples.

Results

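The lysyl oxidase family comprises 5 genes, LOX, LOXL1, LOXL2, LOXL3 and LOXL4, and was found by gene symbol among the 58051 genes counted in each of 12 RNA-seq libraries. Lysyl oxidases are secreted, copper-dependent amine oxidases that oxidise lysine residues of collagen and elastin, after which the fibres become covalently crosslinked and stiffen. LOX and LOXL1 carry a propeptide that is removed outside the cell by the protease BMP1, whereas LOXL2, LOXL3 and LOXL4 carry scavenger receptor cysteine-rich domains in its place. The miR-29 microRNAs pair through their seed with sites in the 3′ UTRs of many extracellular matrix mRNAs and lower the level of those mRNAs, and LOX and LOXL2 are known among its targets.

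The libraries came from 3 established human lines, 786-O, ACHN and A-498, which the labels call clear cell renal cell carcinoma. A miR-29 mimic, a synthetic double-stranded RNA that acts as the microRNA does, was set against a control mimic in 786-O, with 1 library on each side, and in A-498, with 2 on each side. A miR-29 inhibitor, an oligonucleotide that blocks the endogenous microRNA, was set against a control inhibitor in ACHN, with 3 libraries on each side. Each oligonucleotide was transfected at 10 nM, RNA was taken after 48 h, and no group was left untransfected, so every level below is that of transfected cells. The comparisons ask how each family member responds when miR-29 activity is raised or lowered, and which members each line expresses in its controls.

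Reads in genes numbered 39919554 to 70027392 per library, and read counts were scaled to the reads in genes of their library as CPM. Of 9 markers of renal carcinoma, 7 or 8 reached 1 CPM in each group, while CA9, an enzyme typical of clear cell tumours, stayed below 1 CPM in 786-O and ACHN. All 4 endothelial markers were below 1 CPM in all 6 groups, as were 4 or 5 of 5 leukocyte markers. SPARC, COL4A1 and COL1A1, matrix genes known as miR-29 targets and used here to check the labels, fell in A-498 with the mimic (log2 fold changes -2.35, -2.44 and -1.86), rose in ACHN with the inhibitor (2.13, 1.59 and 2.48) and had log2 ratios of -2.26, -2.42 and -2.99 in 786-O.

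The mature sequences of the human miR-29 family are shown because their seed defines the sites searched for in the family mRNAs. They were taken from RefSeq (GRCh38.p14), and capitals mark the seed, nucleotides 2 to 8, which all 3 share. The study's supplement names the mimic as miR-29b, and the labels name no member for the inhibitor. The mature sequence that the study's methods print for the mimic carries the same seed but equals none of the 3 shown here.
hsa-miR-29a-3p: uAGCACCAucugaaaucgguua
hsa-miR-29b-3p: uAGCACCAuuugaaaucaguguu
hsa-miR-29c-3p: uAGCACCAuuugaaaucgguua

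For each gene, only the 3′ UTR of the transcript that the annotation marks as canonical was searched, and other isoforms were not. In these 3′ UTRs, exact seed matches were present for LOX, LOXL2 and LOXL4 and for neither LOXL1 nor LOXL3. The longest 3′ UTR of the family was that of LOX, at 3548 nt, and it held 3 matches to TGGTGCT, a 7mer-m8 (pairing with the whole seed), located 484, 1349 and 3227 nt from the stop codon. LOXL2, with a 3′ UTR of 1146 nt, held a 7mer-m8 at 555 nt and a GGTGCTA match, a 7mer-A1 (pairing with nucleotides 2 to 7 and followed by A), at 757 nt. LOXL4 held a 7mer-m8 at 360 nt in a 3′ UTR of 1231 nt. The 3′ UTRs of LOXL1 (299 nt) and LOXL3 (1348 nt) held no match of even 6 letters (GGTGCT), so the shortest and the second longest UTR of the family both lacked the motif. Among 19515 annotated 3′ UTRs, searched on the mRNA strand, 14.0% held TGGTGCT, alone or within the 8mer TGGTGCTA, and 29.4% held any match of 6 or more letters; GGTGCT lies within all the longer motifs. Upstream of the 3′ UTR, TGGTGCT occurred 1 time in the LOXL2 transcript and in none of the other 4, against 23.0% of all transcripts.

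The matches of LOX and LOXL4 lay in the last exon. On GRCh38, LOX spans chr5:122063195-122078413 on the minus strand, with its matches at chr5:122066253-122066259, chr5:122065388-122065394 and chr5:122063510-122063516. LOXL4 spans chr10:98247690-98268194 on the minus strand, with its match at chr10:98248555-98248561. The windows around the LOX and LOXL4 matches, 29 nt each and read along the mRNA from the GRCh38 sequence with GENCODE annotation, are shown to let the flanks be compared, and capitals mark the seed match.
LOX, 484 nt from the stop codon: atggacacatcTGGTGCTgagaaagaaac
LOX, 1349 nt from the stop codon: ttttaagttagTGGTGCTtaagcataatt
LOX, 3227 nt from the stop codon: ctaagctaaaaTGGTGCTgagttatttaa
LOXL4, 360 nt from the stop codon: ccccatctaagTGGTGCTttgcaaatgtc

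LOXL2 spans chr8:23296897-23425328 on the minus strand, with its matches, also in the last exon, at chr8:23297482-23297488 and chr8:23297280-23297286. LOXL1 (chr15:73925989-73952137, plus strand) and LOXL3 (chr2:74532258-74555690, minus strand) complete the family, so the 5 genes lie on 5 chromosomes.

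**Figure D1:**
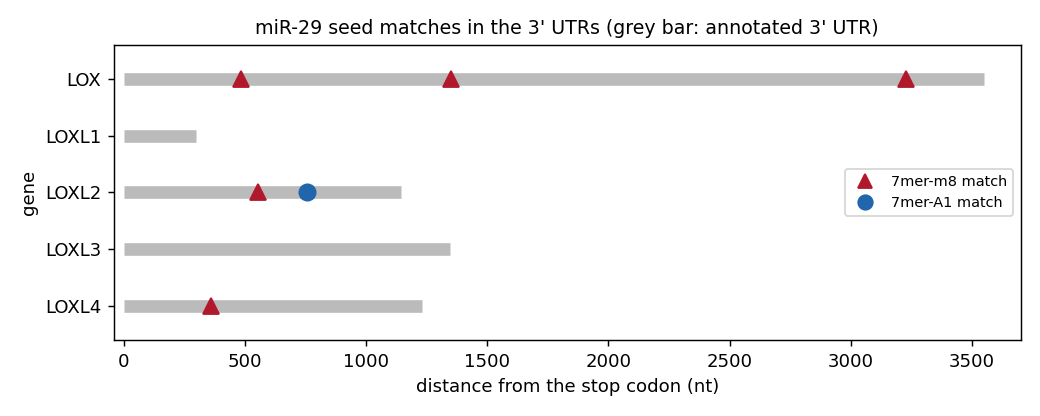
Position of miR-29 seed matches in the annotated 3′ UTR of the canonical transcript of each family member. The horizontal axis gives the distance from the stop codon in nt, with 1 grey bar per gene drawn to its annotated length. LOX holds 3 matches, LOXL2 holds 2, LOXL4 holds 1, and the bars of LOXL1 and LOXL3 carry none.

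In the control libraries each line had its own family profile, led by LOXL2 in all 3 lines when counts were scaled per kb of annotated exon. LOXL2 made up 94.1% of the summed per-length level of the family in A-498 controls and 74.4% in the 786-O control, where LOXL1 took a further 21.5%. On these lengths ACHN controls instead divided the family nearly evenly among LOXL2 (34.4%), LOXL4 (32.6%) and LOX (29.6%). That even split depends on the length used, which pooled the exons of all annotated transcripts. For LOXL2 the pooled exons cover 5985 nt, whereas its canonical transcript has 2575 nt before a 3′ UTR of 1146 nt. A shorter length for LOXL2 would raise its share in every line. LOXL3 took at most 1.41% of the family in the control group of any line. The summed level was 58.5 CPM per kb in the 786-O control, 120 and 116 in the A-498 controls and 57.5 to 60.2 in the ACHN controls.

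**Figure D2:**
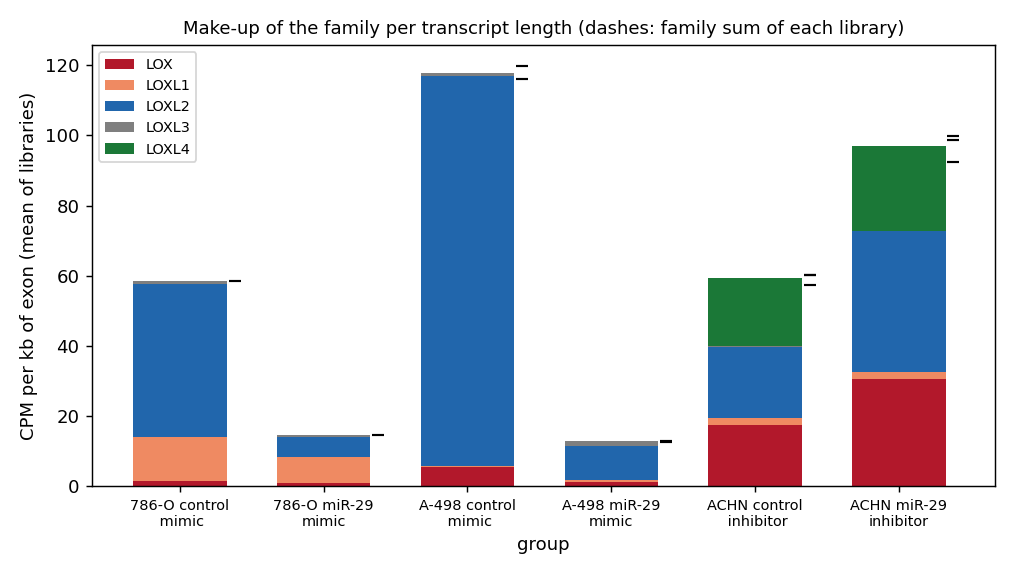
Summed level of the lysyl oxidase family in each group in CPM per kb of annotated exon, stacked by gene as the mean of the libraries, with a dash for the family sum of each library. The A-498 control bar is almost wholly LOXL2, LOXL4 is visible in ACHN alone, and both mimic bars are far below their controls, at 14.8 CPM per kb in 786-O and 12.7 and 13.0 in A-498.

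LOX, the enzyme that names the family, was lowest in 786-O and highest in ACHN, with 9.02 CPM in the 786-O control, 30.6 ± 1.45 CPM in A-498 controls (SD, n = 2) and 98.3 ± 6.33 CPM in ACHN controls (SD, n = 3). LOXL1, which acts mainly on elastin, had a different order: 45.7 CPM in 786-O, 6.62 ± 0.611 CPM in ACHN (SD, n = 3) and 1.68 ± 0.176 CPM in A-498 (SD, n = 2). In both orders 786-O had no replicate to give a spread.

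LOXL2, which is known for crosslinking collagen IV of basement membranes, stood at 664 ± 17.2 CPM in A-498 (SD, n = 2), 260 CPM in 786-O and 122 ± 4.18 CPM in ACHN controls (SD, n = 3). In A-498 this placed LOXL2 at percentile 99.1 per length among 31527 genes with reads. LOXL3, known for its need in collagen fibres of the developing palate, was low throughout, at 4.69 ± 0.542 CPM in A-498 (SD, n = 2), 3.72 CPM in 786-O and 0.799 ± 0.20 CPM in ACHN (SD, n = 3). The levels of LOXL3 in the A-498 controls, 5.07 and 4.31 CPM, differed from each other by more than the lower of them differed from the 786-O library.

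LOXL4, a collagen-crosslinking relative of LOXL2, separated the lines most sharply. Its counts were 3360, 2837 and 2862 in the ACHN controls, 0 in the 786-O control, and 0 and 4 in the A-498 controls. On summed counts it was 2011-fold higher in ACHN than in A-498 controls (95% interval 785 to 7382, exact binomial, counting error only). Against the 786-O control the difference was at least 1040-fold, taking 3 counts as the floor for that library, since 0 counts allow up to 0.0668 CPM.

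Between the control libraries of A-498 and ACHN, LOX, LOXL1, LOXL2 and LOXL3 each differed at an adjusted p under 0.05 (edgeR's quasi-likelihood test, Benjamini-Hochberg adjustment over all genes tested), where 79.8% of 19689 genes did so, 38.7% lower and 41% higher in A-498. LOXL4 was called as well, but it passed the filter on low counts through ACHN alone, so its call is not set against that share. In A-498, LOX was 3.23-fold lower (log2 difference -1.69, SE 0.0594, edgeR adjusted p = 5.06e-16) and LOXL1 was 3.96-fold lower (-1.98, SE 0.133, edgeR adjusted p = 2.31e-11). LOXL2 was 5.42-fold higher (2.44, SE 0.0383, edgeR adjusted p = 8.07e-22) and LOXL3 was 5.82-fold higher (2.54, SE 0.175, edgeR adjusted p = 3.92e-11). The line and the kind of control oligonucleotide change together here and cannot be told apart.

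**Figure D3:**
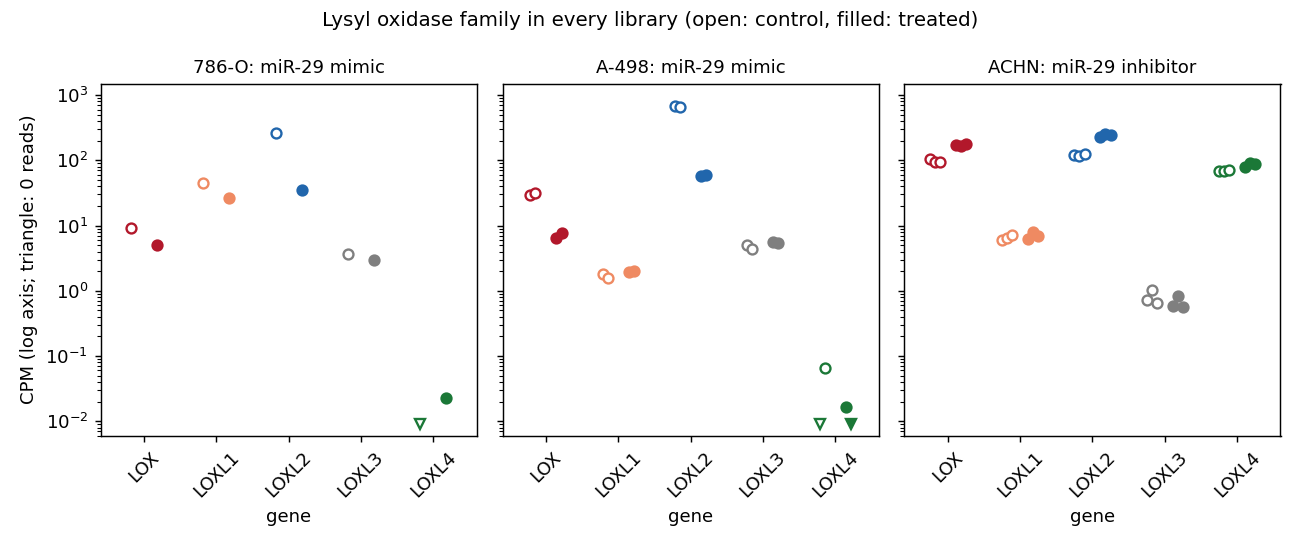
CPM of each family member in each of the 12 libraries on a log axis, by cell line, with open symbols for control and filled symbols for treated libraries and triangles for libraries with 0 reads. LOXL2 and LOX drop with the mimic in A-498 and rise with the inhibitor in ACHN, whereas LOXL1 and LOXL3 stay close to their control levels in both lines.

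Raising miR-29 in A-498 sharply lowered LOXL2 and LOX and left LOXL1 and LOXL3 within the error of the test. LOXL2 was 11.9-fold lower and LOX 4.56-fold lower with the mimic. Of the 4 members tested, 2 were called lower and 0 higher (adjusted p under 0.05), where 27% of 19676 genes were called lower and 25.5% higher. LOXL4, with 0 to 4 reads in each library, was not tested. A lower level in bulk RNA can come from less RNA per cell or from fewer cells of a kind, and these cannot be told apart.

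LOX was at 29.6 and 31.7 CPM in the 2 control libraries and at 6.52 and 7.66 CPM in the 2 mimic libraries. The groups were far apart relative to their spread. On the log2 scale this was a change of -2.19 (SE 0.0802, edgeR adjusted p = 3.47e-11), rank 47 from the lowest among all genes tested. LOXL1, which also depends on BMP1 for its processing, was at 1.81 and 1.56 CPM in controls and 1.92 and 2.0 CPM with the mimic. These were 94 to 118 reads per library, and the log2 fold change of 0.15 had a 95% interval of -0.19 to 0.49 (edgeR adjusted p = 0.461).

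LOXL2 was at 676 and 652 CPM in the control libraries and 58.2 and 59.0 CPM in the mimic libraries, so that the most abundant member lost most of its mRNA. Its log2 fold change of -3.58 (SE 0.0403, edgeR adjusted p = 5.75e-16) was the third lowest of 19676 genes, and its percentile per length went from 99.1 to 86.2. LOXL3 was at 5.07 and 4.31 CPM in controls and 5.60 and 5.44 CPM with the mimic. The mimic libraries were both above the controls, yet the log2 fold change of 0.16 had a 95% interval of -0.07 to 0.40 and did not pass the test (edgeR adjusted p = 0.235). LOXL1 and LOXL3 thus each had mimic libraries above both controls without a call, in a comparison where 44.2% of all genes tested had mimic libraries above both controls in CPM.

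The make-up of the family changed accordingly. The summed level went from 120 and 116 to 12.7 and 13.0 CPM per kb, and LOXL2 still held 76.4% of it. LOXL3 went from 0.879% to 9.53% of the family and LOXL1 from 0.391% to 4.21%, although the level of neither was called changed.

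In 786-O the mimic library had lower values than the control library for all 4 members that could be measured. With 1 library per group there is no replicate check and no p-value, and the intervals given cover counting error only. LOXL2 was 7.53-fold lower in the mimic library, the 35th lowest ratio of 20370 genes. It was the 1 member of 4 past a 2-fold change, where 8.96% of genes were at least 2-fold lower and 6.73% at least 2-fold higher. A ratio below 0 on the log2 scale, found for 4 of the 4 members, was found for 51% of all genes.

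LOX was at 9.02 CPM in the control library and 5.07 CPM in the mimic library, a log2 ratio of -0.85 (95% counting interval -1.10 to -0.62). LOXL1 was at 45.7 CPM in the control and 26.7 CPM with the mimic, a log2 ratio of -0.80 (-0.90 to -0.70). Both ratios were of about the same size, on 405 and 225 reads for LOX and 2051 and 1184 reads for LOXL1.

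LOXL2 was at 260 CPM in the control and 35.1 CPM with the mimic, a log2 ratio of -2.91 (-2.99 to -2.84). LOXL3 was at 3.72 and 2.97 CPM, a log2 ratio of -0.34 with a counting interval that reached -0.0086. LOXL4 had 0 reads in the control and 1 read in the mimic library, and no ratio was formed. After the mimic, LOXL1 became the largest member per length, at 49.6% of the family against 39.7% for LOXL2, where the control had 21.5% and 74.4%.

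**Figure D4:**
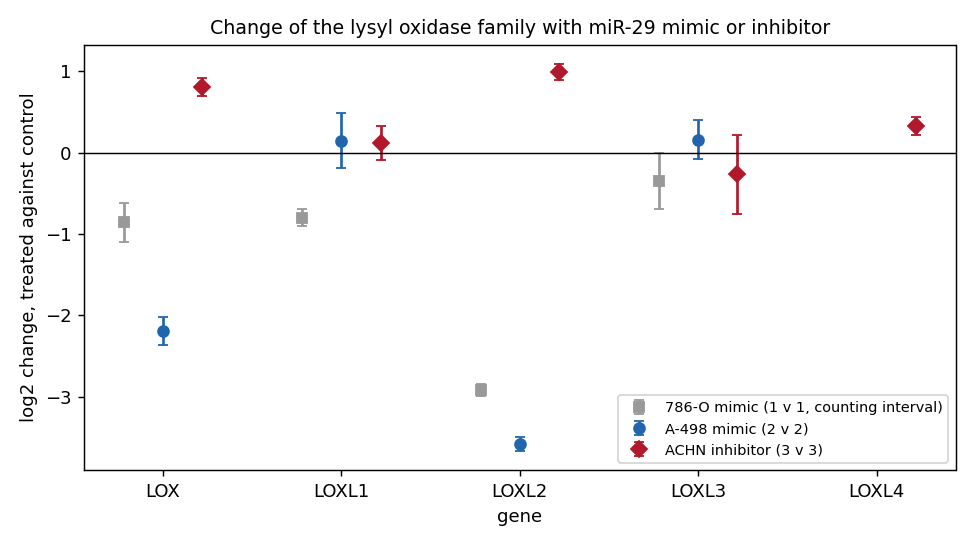
Log2 change of each family member with miR-29 mimic (786-O, A-498) or inhibitor (ACHN) against control, with 95% intervals from edgeR for A-498 and ACHN and counting intervals for 786-O. LOXL2 lies at -3.58 and -2.91 with the mimic and at 0.99 with the inhibitor, while the intervals of LOXL1 and LOXL3 in A-498 and ACHN cross 0.

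Whether the mimic response differs between 786-O and A-498 cannot be settled without replicates of 786-O. With the replicate spread of A-498 the interaction was called for 3 of the 4 members tested, where 29.6% of 22587 genes were called (13.2% lower and 16.5% higher in 786-O). LOX differed by 1.38 on the log2 scale (SE 0.171, edgeR adjusted p = 3.12e-06) and LOXL2 by 0.71 (SE 0.0719, edgeR adjusted p = 2.26e-07), the drop being smaller in 786-O for both genes. LOXL1 differed by -0.90 (SE 0.171, edgeR adjusted p = 0.000376), being lower with the mimic in 786-O and not in A-498. LOXL3 differed by -0.46 (95% interval -0.93 to 0.0017, edgeR adjusted p = 0.132). Replicates of A-498 alone supply the spread here, with a biological coefficient of variation of 3.84%, and with that coefficient set to 20% for both lines (0.2 as a fraction) none of the 3 calls remained (adjusted p = 0.203 for LOX, 0.598 for LOXL1 and 0.740 for LOXL2 by edgeR's likelihood ratio test). The comparison shares its A-498 libraries with the A-498 result above.

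Lowering miR-29 in ACHN raised LOXL2, LOX and, by a smaller amount, LOXL4. LOXL2 was 1.99-fold higher, LOX 1.75-fold higher and LOXL4 1.26-fold higher with the inhibitor. Of the 5 members, all of which passed the filter, 3 were called higher and 0 lower (adjusted p under 0.05), where 17.3% of 17904 genes were called higher and 14.4% lower. The 3 members called hold a seed match in the canonical 3′ UTR that was searched and the 2 others do not. However, LOXL3 had at most 44 reads per library here, and LOXL1, without a match there, was lower with the mimic in 786-O. Whether the matches take part in these changes was not tested.

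LOX was at 106, 94.4 and 94.8 CPM in the 3 control libraries and at 170, 166 and 176 CPM in the 3 inhibitor libraries. The lowest inhibitor library was well above the highest control. On the log2 scale LOX rose by 0.81 (SE 0.0516, edgeR adjusted p = 1.43e-09), rank 345 from the highest of 17904. LOXL1 was at 6.09, 6.50 and 7.29 CPM in controls and 6.31, 8.06 and 6.98 CPM with the inhibitor. Its groups overlapped, and the log2 fold change of 0.11 had a 95% interval of -0.10 to 0.32 (edgeR adjusted p = 0.427).

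LOXL2 was at 121, 118 and 127 CPM in controls and 228, 252 and 241 CPM with the inhibitor, a log2 fold change of 0.99 (SE 0.0472, edgeR adjusted p = 2.38e-11), rank 180 from the highest. It lay just under a 2-fold rise, a size that 0.91% of genes reached with a call. LOXL3 was at 0.720, 1.03 and 0.651 CPM in controls and 0.588, 0.840 and 0.571 CPM with the inhibitor, on 26 to 44 reads per library. With so few reads the 95% interval of its log2 fold change of -0.27 ran from -0.75 to 0.22 (edgeR adjusted p = 0.420), an interval that leaves room for a fall of that size and not for a rise as large as that of LOX or LOXL2.

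LOXL4 was at 69.1, 67.8 and 71.7 CPM in controls and 79.5, 91.9 and 89.0 CPM with the inhibitor. All inhibitor libraries were above all controls, as were those of 21.6% of the genes tested. On the log2 scale LOXL4 rose by 0.33 (SE 0.0535, edgeR adjusted p = 0.000105), and the 95% interval of 0.22 to 0.44 lay wholly below those of LOX (0.70 to 0.92) and LOXL2 (0.89 to 1.09). The summed level of the family went from 57.5 to 60.2 CPM per kb in the controls to 92.4 to 99.8 with the inhibitor. Within that sum the share of LOXL2 went from 34.4% to 41.4% and that of LOXL4 from 32.6% to 24.9%, so that LOXL4 rose in level and lost in share.

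An antisense neighbour of LOXL1 fell with the mimic in A-498 and rose with the inhibitor in ACHN. LOXL1-AS1, a long noncoding RNA on the opposite strand, shares 335 nt of exon with LOXL1 (9.21% of the LOXL1 exons). The study describes its libraries as stranded. In A-498 it was at 7.06 and 7.09 CPM in controls and 4.28 and 4.21 CPM with the mimic, a log2 fold change of -0.81 (SE 0.0959, edgeR adjusted p = 5.96e-06). In ACHN it was at 12.2, 11.6 and 13.1 CPM in controls and 15.6, 14.9 and 14.6 CPM with the inhibitor, a log2 fold change of 0.30 (SE 0.0686, edgeR adjusted p = 0.00227). The 786-O libraries had 19.1 CPM in the control and 7.5 CPM with the mimic, a log2 ratio of -1.36, beside -0.80 for LOXL1. TGGTGCT occurred in 1 of its 16 annotated transcripts, which is 3429 nt long. No test of the difference between LOXL1 and LOXL1-AS1 was made, and in ACHN the interval of LOXL1 (-0.10 to 0.32) contains the change of LOXL1-AS1.

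Of the other overlapping genes, those tested changed by at most 0.42 on the log2 scale in A-498 and ACHN. LOXL2-AS1, antisense to LOXL2 and too low to test in A-498, rose in ACHN from 1.42, 1.46 and 1.55 CPM to 1.91, 2.08 and 1.90 CPM (log2 fold change 0.42, SE 0.137, edgeR adjusted p = 0.0246), a call lost with DESeq2 (adjusted p = 0.119) and without control replicate 1 (0.0918), control replicate 2 (0.0667) or inhibitor replicate 2 (0.0678). ENTPD4, a nucleotide-hydrolysing enzyme gene that overlaps LOXL2 on the same strand over 2.01% of the LOXL2 exons, rose in A-498 (0.35, edgeR adjusted p = 2.38e-05), where LOXL2 fell, and in ACHN (0.18, edgeR adjusted p = 0.00423). HTRA2, a mitochondrial protease gene opposite LOXL3 that covers 20.7% of the LOXL3 exons, was called in neither line (0.09 in A-498 and 0.02 in ACHN, edgeR adjusted p = 0.171 and 0.798), although scaling by library size gave a call in A-498 (0.17, adjusted p = 0.0168). SRFBP1, opposite LOX, rose by 0.22 on the log2 scale in A-498 (edgeR adjusted p = 0.00323) and fell by 0.21 in ACHN (edgeR adjusted p = 0.00362), the reverse of LOX in each line. Without A-498 mimic replicate 1 the first of these was not called (adjusted p = 0.0766). DOK1, opposite LOXL3, rose by 0.22 in A-498 (edgeR adjusted p = 0.00437, or 0.104 without mimic replicate 2) and had -0.05 in ACHN (edgeR adjusted p = 0.599). A noncoding gene opposite LOXL4 had 4 to 32 reads per library and was tested in neither A-498 nor ACHN.

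Most of the tested substrates of the family were lower with the mimic in A-498 and higher with the inhibitor in ACHN. Of 15 genes of fibrillar and basement membrane collagens and elastin, 10 were tested in A-498 with 9 lower and 1 higher, beside 27% and 25.5% of all genes. Their median log2 fold change was -1.44, against 0.0045 over all genes. In ACHN 9 were tested with 0 lower, 6 higher and 3 not called, beside 14.4% lower and 17.3% higher of all genes. The median there was 0.98, against 0.0038 over all genes. COL4A1, a chain of the basement membrane collagen that LOXL2 crosslinks, was at 542 ± 17.3 CPM in A-498 controls and 105 ± 1.59 CPM with the mimic (SD, n = 2), and at 717 ± 45.5 CPM in ACHN controls and 2144 ± 191 CPM with the inhibitor (SD, n = 3). COL5A2, a fibrillar chain, rose by 1.61 in ACHN (edgeR adjusted p = 1.62e-13). The exception in A-498 was COL4A6, a rarer basement membrane chain named here after its value was seen, at 0.71 (edgeR adjusted p = 0.0200). In 786-O, 5 of 9 were at least 2-fold lower and 0 higher, beside 8.96% and 6.73% of all genes. COL4A2, the partner chain of COL4A1, was at -1.94 there. Of 13 genes known as miR-29 targets, which include 6 of these substrates, 11 of 11 tested were lower in A-498, beside 27% of all genes. In ACHN 11 of 12 were higher, beside 17.3% of all genes. In 786-O 9 of 11 were at least 2-fold lower, beside 8.96% of all genes, and CDK6, a cell cycle kinase, was at -2.88.

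A list of 18 genes for the modification of collagen lysines and prolines before secretion held enzymes as well as chaperones and other partners. Of these, 13 were lower and 2 higher in A-498 (median -0.55, beside 27% and 25.5% of all genes), and 1 was lower and 9 were higher in ACHN (median 0.16, beside 14.4% and 17.3%). SERPINH1, the collagen chaperone HSP47, went from 504 ± 20.3 to 144 ± 0.395 CPM in A-498 (SD, n = 2; log2 fold change -1.89, edgeR adjusted p = 1.54e-13) and rose by 0.95 in ACHN (edgeR adjusted p = 3.59e-11). COLGALT1, which adds galactose to hydroxylysine, fell by 1.80 in A-498 (edgeR adjusted p = 2.58e-13), and P3H4, a component of the collagen hydroxylation complex, rose by 0.67 in ACHN (edgeR adjusted p = 3.79e-08). In 786-O, 4 of the 18 were at least 2-fold lower and 1 higher (median -0.09), beside 8.96% and 6.73% of all genes. COLGALT1 was at -1.62 and SERPINH1 at -1.60 there.

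Of 12 genes for activation and binding of lysyl oxidases, 11 were tested in A-498 with 4 lower and 4 higher (median -0.09) and 9 in ACHN with 2 lower and 2 higher (median 0.05), close to the shares over all genes of 27% and 25.5% in A-498 and 14.4% and 17.3% in ACHN. BMP1, which removes the propeptide of LOX, was at 98.1 ± 7.77 CPM in A-498 controls and 57.0 ± 0.0237 CPM with the mimic (SD, n = 2; log2 fold change -0.86, edgeR adjusted p = 7.50e-09), and at 24.0 ± 0.765 and 34.6 ± 2.68 CPM in ACHN (SD, n = 3; 0.54, edgeR adjusted p = 9.63e-07). POSTN, a matrix protein that binds BMP1, fell by 1.87 in A-498 (edgeR adjusted p = 5.58e-11). FN1, the fibronectin scaffold on which LOX is processed, fell by 0.38 with the inhibitor in ACHN (edgeR adjusted p = 1.88e-08). It also fell with the mimic in A-498, by 0.28 (edgeR adjusted p = 1.56e-05). In 786-O, 2 of 10 were at least 2-fold lower and 1 at least 2-fold higher (median -0.20), beside 8.96% and 6.73% of all genes. BMP1 was at -1.28 and THBS1, a matrix glycoprotein, at 0.91. THBS1 fell by 0.62 in A-498 (edgeR adjusted p = 5.71e-09) and by 0.24 in ACHN (edgeR adjusted p = 7.54e-05).

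Copper supply, on which the catalytic site depends, gave 3 lower and 4 higher of 12 genes tested in A-498 (median 0.03), close to the 27% and 25.5% of all genes, and 1 lower and 7 higher of 12 in ACHN (median 0.17), beside 14.4% and 17.3% of all genes. ATP7A, the pump that loads copper into the secretory pathway, went from 54.8 ± 0.299 to 35.2 ± 0.539 CPM in A-498 (SD, n = 2; log2 fold change -0.71, edgeR adjusted p = 2.12e-08) and from 6.96 ± 0.977 to 12.1 ± 0.257 CPM in ACHN (SD, n = 3; 0.81, edgeR adjusted p = 1.25e-06). Its 786-O ratio was -1.01, in the same direction as in A-498. STEAP3, a metalloreductase, fell by 1.09 in A-498 (edgeR adjusted p = 8.35e-11) and had a ratio of -1.63 in 786-O. SLC31A2, a copper transporter of intracellular membranes, rose by 0.40 with the inhibitor in ACHN (edgeR adjusted p = 0.000375). It also rose with the mimic in A-498, by 0.30 (edgeR adjusted p = 0.00131), and had a ratio of -0.83 in 786-O. In 786-O, 2 of 12 were at least 2-fold lower and 0 higher (median -0.02), beside 8.96% and 6.73% of all genes.

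Of the elastic fibre genes, 4 were lower and 5 higher of 14 tested in A-498 (median 0.19), near the 27% and 25.5% of all genes. In ACHN 1 was lower and 6 were higher of 12 (median 0.25), beside 14.4% and 17.3% of all genes. FBN1, the main microfibril protein, fell by 1.92 in A-498 (edgeR adjusted p = 2.36e-10) and rose by 1.31 in ACHN (edgeR adjusted p = 6.20e-13). EFEMP1, a fibulin, fell by 1.02 in A-498 (edgeR adjusted p = 9.51e-10). LTBP4, which binds latent TGF-beta, fell by 0.29 in ACHN (edgeR adjusted p = 0.0132), a call lost without control replicate 3 (adjusted p = 0.0824), inhibitor replicate 1 (0.0507) or inhibitor replicate 3 (0.0753). In 786-O, 2 of 12 were at least 2-fold lower and 0 higher (median -0.33), beside 8.96% and 6.73% of all genes. FBN1 was at -2.35 and LTBP2, a microfibril-associated protein, at -0.77. LTBP2 rose by 0.47 in A-498 (edgeR adjusted p = 0.000118) and by 0.23 in ACHN (edgeR adjusted p = 0.00214).

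Of 9 other amine oxidases, 7 were tested in A-498 with 1 lower and 5 higher (median 0.58, beside 27% and 25.5% of all genes), and 5 in ACHN with 0 lower and 1 higher (median 0.09, beside 14.4% and 17.3%). SMOX, which oxidises spermine, rose by 0.83 in A-498 (edgeR adjusted p = 8.75e-08) and by 0.36 in ACHN (edgeR adjusted p = 8.37e-05), and MAOA, a monoamine oxidase of mitochondria, rose by 0.58 in A-498 (edgeR adjusted p = 4.37e-05). KDM1B, a histone demethylase, was at -0.10 in ACHN (edgeR adjusted p = 0.243). In 786-O, 0 of 8 were at least 2-fold lower and 1 was higher (median 0.32), beside 8.96% and 6.73% of all genes. KDM1A, the related demethylase, was at -0.39 and KDM1B at 0.32.

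Genes of the epithelial-mesenchymal transition, a programme in which LOXL2 and LOXL3 are known to act with SNAI1, gave 3 lower and 2 higher of 8 tested in A-498 (median -0.25), and 1 lower and 1 higher of 9 in ACHN (median 0.08). These counts are near the shares over all genes, 27% and 25.5% in A-498 and 14.4% and 17.3% in ACHN. SNAI1 itself fell by 0.43 in A-498 (edgeR adjusted p = 4.11e-05), as did the cadherin gene CDH2 by 0.38 (edgeR adjusted p = 7.38e-07). With the inhibitor in ACHN neither was called, SNAI1 at -0.53 (edgeR adjusted p = 0.0559) and CDH2 at -0.07 (edgeR adjusted p = 0.195). VIM, a mesenchymal filament, fell by 0.44 in ACHN (edgeR adjusted p = 5.38e-08), where LOXL2 rose. With the mimic VIM rose by 0.38 in A-498 (edgeR adjusted p = 7.31e-08), where LOXL2 fell, and had a ratio of 0.37 in 786-O. ZEB1, a repressor of E-cadherin, was at 0.08 in ACHN (edgeR adjusted p = 0.318, or 0.00882 at 0.15 without inhibitor replicate 2). In 786-O, 0 of 8 passed a 2-fold change in either direction (median 0.15), beside 8.96% lower and 6.73% higher of all genes. SNAI1 was at -0.63 and ZEB2 at 0.43.

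**Figure D5:**
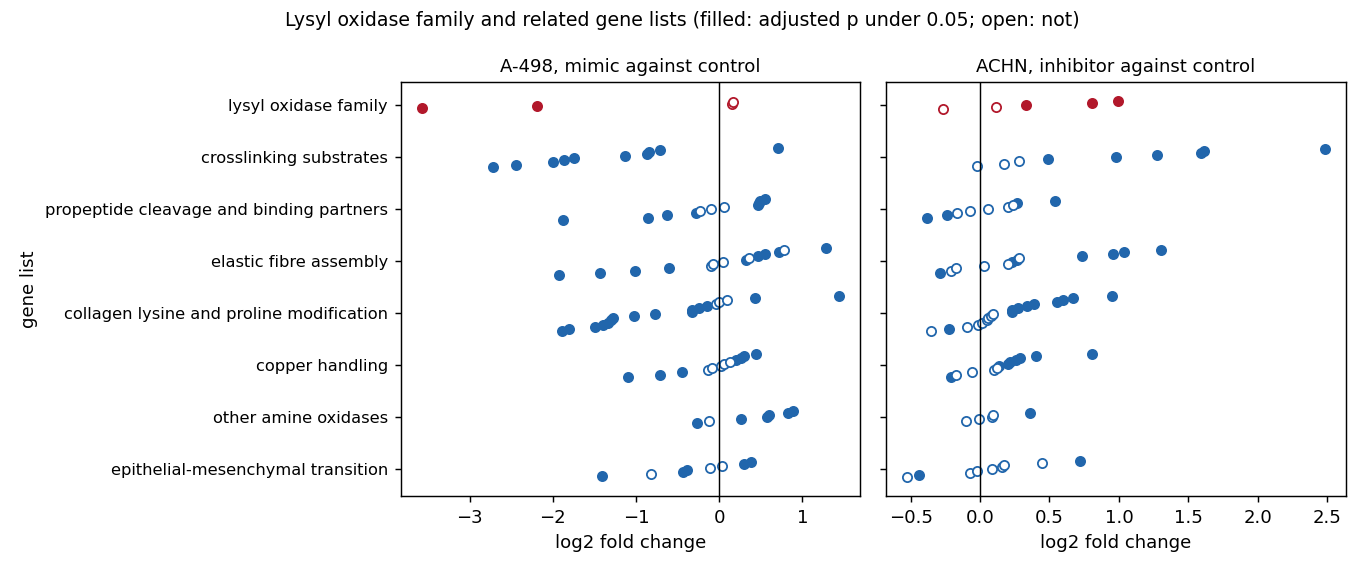
Log2 fold changes of the lysyl oxidase family and of 7 lists of related genes with the mimic in A-498 and with the inhibitor in ACHN, 1 point per gene tested, filled where the edgeR adjusted p was under 0.05. In A-498 substrates lie mostly left of 0 (9 of 10 lower) and in ACHN mostly right of it (6 of 9 higher). Of the other amine oxidases 5 of 7 were higher in A-498. Over all genes, 27% were called lower and 25.5% higher in A-498, and 17.3% higher in ACHN.

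Markers of fibroblasts and smooth muscle, cells that also make lysyl oxidases, moved in part with the family. Of 7 such genes, 2 or 3 reached 1 CPM in each group. Their summed level was 37.3 to 37.5 CPM in A-498 controls and 31.0 to 31.1 CPM with the mimic, 32.7 to 34.0 and 34.7 to 37.4 CPM in ACHN controls and inhibitor libraries, and 25.6 and 12.6 CPM in the 786-O control and mimic libraries. In A-498, 3 of 4 tested were lower, beside 27% of all genes, and in ACHN, 2 of 3 tested were higher, beside 17.3%. ACTA2 made up most of the sum in A-498, at 30.78 to 31.06 CPM in controls and 27.85 to 28.33 CPM with the mimic. It did so in ACHN as well, at 30.72 to 31.91 CPM in controls and 31.59 to 34.23 CPM with the inhibitor. DES, another marker of the list, was at 4.16 to 4.55 CPM in A-498 controls and 1.43 to 1.59 CPM with the mimic. In 786-O most of the drop was in LUM, at 17.5 CPM in the control and 6.22 CPM in the mimic library. PDGFRB, a defining receptor of pericytes and fibroblasts, was at 1.60 and 0.587 CPM on average in A-498 controls and mimic libraries. In ACHN it was at 1.275 to 1.553 CPM in controls and 2.193 to 2.96 CPM with the inhibitor. The 786-O control and mimic libraries had 5.188 and 3.425 CPM of PDGFRB. Of the other defining markers, DCN stayed below 1 CPM in all 12 libraries, and LUM did so in A-498 and ACHN. Their part in the family's changes was not tested.

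Across the 12 libraries, the genes whose log2 CPM most resembled each member were searched among 9907 genes. Pearson's r was 0.995 for LOX with H2AC21 and 0.993 with CDK2. For LOXL1 it was 0.995 with EMSY and 0.993 with MEN1, for LOXL2 0.987 with B4GALT2 and 0.981 with TBC1D7, for LOXL3 0.990 with NECAB3 and 0.988 with ID1, and for LOXL4 0.993 with PAWR and 0.992 with KRBOX5. The 12 libraries fall into 3 lines, so these values describe mostly the shared order of the lines.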

How the data were processed

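RNA-seq counts per gene were read from 12 libraries. The authors prepared stranded, rRNA-depleted libraries, aligned 100 bp paired reads to GRCh38 with HISAT2, counted with HTSeq (intersection-strict mode, Ensembl v87) and deposited raw counts without normalisation. The deposited files also hold 5 lines that total the reads outside single genes; these 37.2% to 48.0% of reads were left out. The authors' DESeq2 tables hold their own fold changes and p-values and were not used. Because of possible mislabelling the study dropped 2 more A-498 libraries, which were not analysed here. The study calls the replicates biological, and no 2 libraries of a group agreed within sampling noise (chi-square over its degrees of freedom 3.60 to 11.0).

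Symbols came from GENCODE v44 (98.1% of IDs matched; SCO2 had no match), as did exon lengths and 3′ UTRs; this annotation is newer than the one counted on but of the same build. Levels are CPM over reads in genes. edgeR 4.0.16 (R 4.3.3) fitted each comparison with TMM scaling, filterByExpr and the quasi-likelihood test, threshold 0.05. SE is the absolute log2 fold change over the square root of F. For 786-O, log2 ratios used prior count 2 and genes with at least 10 reads. The fits were tested on simulated data. No molecular identifiers are described, so counting intervals (95%) and floors (3 counts) cover counting error only.

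The members and lists were chosen with earlier results of these data known. Named from each list were the 2 genes with the largest change per line and a mean log2 CPM of 3 or more, and named with each member were overlapping genes and the 2 genes most alike. Alternatives were DESeq2 1.42.0, library size scaling, no filter, another prior count or spread, each replicate left out and, in ACHN, a replicate block. Deviations of same-numbered ACHN libraries correlated at 0.042, -0.050 and -0.0047, and those of differently numbered ones at -0.071 to 0.069. The replicate numbers thus carried no visible shared deviation, which cannot show whether the samples were handled in pairs.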

Additional observations from a re-analysis of the deposited data

Results flagged for a closer look

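With the replicate spread of A-498, a test of the difference between the mimic responses of 786-O and A-498 called LOX (1.38 on the log2 scale), LOXL1 (-0.90) and LOXL2 (0.71). LOX and LOXL2 had smaller drops in 786-O than in A-498, and LOXL1 was lower with the mimic in 786-O and not in A-498. The 786-O side of each difference is 1 library per group, and none of the 3 calls remained with a coefficient of variation of 0.2 (adjusted p = 0.203, 0.598 and 0.740 by edgeR's likelihood ratio test), so a library effect in 786-O and an effect of the line cannot be told apart.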

How the results depend on the processing

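All calls of the members in A-498, in ACHN and between control levels kept their direction and side of the threshold under every alternative run, and so did the direction of the 786-O ratios. In A-498 the log2 fold change ranged from -3.62 to -3.50 for LOXL2 and from -2.31 to -2.09 for LOX, and in ACHN from 0.95 to 1.02 for LOXL2, 0.77 to 0.86 for LOX and 0.29 to 0.38 for LOXL4. With a coefficient of variation fixed at 0.2, the difference between 786-O and A-498 was no longer called for LOX (1.38), LOXL1 (-0.90) or LOXL2 (0.71), and 182 genes were called lower and 99 higher in place of 2972 and 3723; DESeq2 called 1953 and 2151. Leaving out an A-498 library gave 2437 to 4219 lower and 2409 (without mimic replicate 1) to 4252 higher, and LOXL3 values of -0.58 to -0.43, called at -0.58 without control replicate 1 (edgeR adjusted p = 0.0346). Without the filter on low counts, 3277 genes were at least 2-fold lower in 786-O and 2435 higher, in place of 1826 and 1371. HTRA2 in ACHN, at 0.02, ranged from -0.0049 (without control replicate 2) to 0.042 as replicates were left out. Where 1 A-498 library was left out, the lone library of its group was assumed to vary like the other group. With library size in place of TMM, 41.3% rather than 51.4% of A-498 calls were lower, and 58.4% rather than 44.4% of the calls of difference between the lines. Between control levels the median of all genes moved from 0.019 to 0.12 with DESeq2 and 0.14 without the filter, well below each member's difference. With the replicate block, ACHN had 2638 genes lower and 3125 higher in place of 2578 and 3102, and no call of a member changed. In the other comparisons no paired analysis was possible because the A-498 groups share only replicate number 1, 786-O has 1 library per group, and the control comparison is between lines. Depth limits LOXL4 in A-498 and 786-O, with 0 to 4 reads per library and no test, and LOXL3 in ACHN, with 26 to 44.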
